A study of Mus musculus with 22 samples.

Results

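The 50 genes described here are a list of DNA replication genes, found by symbol among the 23453 gene symbols counted in single mouse astrocytes. All 50 were found. The rule is a list of names that uses no measured value, but the list was drawn up with earlier results of these data known. They were followed gene by gene in 22 cells, each a primary astrocyte cultured from the cortex of single C57BL/6 pups (P0-P1). Before replating, every culture had been shaken and given cytosine arabinoside, a blocker of DNA synthesis, for 12 hours to remove other cell types, and serum was withdrawn 24 hours before the experiment. Each cell was exposed to ethanol (EtOH) under calcium imaging, classified by its calcium signal and then aspirated into a micropipette. The classes were 6 S-type cells, with a slow rise and slow decay, 6 T-type cells, with a transient rise, 5 M-type cells, with a mixed signal, and 5 NR cells, which did not respond. All 4 classes had therefore seen cytosine arabinoside, serum withdrawal and EtOH, and no untreated cell was analysed here. Since the animal and the culture of a cell are not in the labels, a response type stood as a single sample, types could not be tested against each other, and the cells of a type are described without being treated as replicates. The labels also do not say which cells were collected early and which late after EtOH.

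Cells had between 2937786 and 22131076 reads on genes. A normalized count is the read count divided by a size factor, the median ratio to 3670 genes with a read in every cell, and these factors ran from 0.183 to 2.31. The smallest belonged to T-type cells J163_18 and J162_16. Astrocyte markers held between 0.166% and 1.15% of the reads of a cell, and all 14 had reads in the series. Microglia markers never passed 0.0152%, but all 11 that were tested were at least 2-fold higher in NR than in S-type and in M-type cells. Their part in the results was not tested.

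DNA replication starts when the origin recognition complex, CDC6 and CDT1 load the ring-shaped MCM2-7 helicase on DNA in G1, a step called licensing. At the start of S phase CDC45 and the GINS complex join the helicase and activate it, DNA polymerase alpha-primase lays primers, and the clamp loader RFC sets the sliding clamp PCNA for polymerases delta and epsilon. FEN1 and LIG1 finish the lagging strand, ribonucleotide reductase and thymidylate synthase supply nucleotides, and chromatin factors repackage the new DNA. Many of these genes are transcribed together at the G1/S boundary under E2F factors. Astrocytes of newborn cortex still divide, and cultured ones can do so in serum.

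The promoters were examined because genes that share E2F control often carry its binding word near the start site. RefSeq entries (GRCm38.p6, the build of the alignment) gave a promoter for 38 of the 50 genes, 250 bases before to 50 bases after the start. The words TTTCCCGC, TTTCGCGC, TTTGCCGC and TTTGGCGC were searched on both strands, and matches may overlap each other. At least 1 of them stood in 16 of the 38 genes, or 42.1%, against 2.605% of 27025 genes with a promoter and 4.76% of the 9447 genes that also had a read in at least 5 cells. The shorter word CCAAT, on either strand, was in 55.3% of the 38 against 41.1% of all, and TTTGAA, the core of the cell cycle homology element of mitosis genes, in 13.2% against 20.2%. Over the same 9447 genes CCAAT was in 43.3% and TTTGAA in 13.9%, so that the share of TTTGAA in the members was near that background. In 35 promoters of other replication genes the first words stood in 34.3%, CCAAT in 62.9% and TTTGAA in 22.9%, and in 30 promoters of mitosis genes they stood in 3.33%, 76.7% and 66.7%. For 6 genes with a word before the start, the stretch upstream of it, written 5′ to 3′ along the gene with the words in capitals, shows how the matches lie.
Mcm5 (chr8:75109346-75109508, plus strand): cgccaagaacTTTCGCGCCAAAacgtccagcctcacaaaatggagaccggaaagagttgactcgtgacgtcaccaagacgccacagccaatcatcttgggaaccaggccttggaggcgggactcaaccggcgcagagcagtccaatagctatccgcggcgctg
Mcm6 (chr1:128359706-128359865, minus strand): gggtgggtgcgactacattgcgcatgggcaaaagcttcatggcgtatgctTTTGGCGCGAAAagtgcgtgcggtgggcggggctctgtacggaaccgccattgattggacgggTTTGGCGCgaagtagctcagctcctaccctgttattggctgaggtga
Mcm7 (chr5:138171884-138172058, minus strand): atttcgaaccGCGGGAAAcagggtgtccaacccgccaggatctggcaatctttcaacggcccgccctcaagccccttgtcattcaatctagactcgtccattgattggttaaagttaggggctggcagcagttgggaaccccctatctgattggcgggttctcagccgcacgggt
Cdc6 (chr11:98907991-98908150, plus strand): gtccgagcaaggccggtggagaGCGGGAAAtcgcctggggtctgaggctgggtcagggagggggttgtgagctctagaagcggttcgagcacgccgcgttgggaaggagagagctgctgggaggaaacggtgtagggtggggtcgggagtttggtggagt
Pola1 (chrX:93632156-93632315, minus strand): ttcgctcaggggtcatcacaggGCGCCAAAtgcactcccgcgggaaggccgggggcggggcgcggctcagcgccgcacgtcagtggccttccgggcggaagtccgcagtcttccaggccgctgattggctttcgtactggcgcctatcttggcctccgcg
Hells (chr19:38930830-38930989, plus strand): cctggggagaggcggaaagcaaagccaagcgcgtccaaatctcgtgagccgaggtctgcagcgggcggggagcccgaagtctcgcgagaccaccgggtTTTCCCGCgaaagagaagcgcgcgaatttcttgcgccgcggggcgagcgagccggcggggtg
In *Mcm5* and in *Mcm6* a capital run is longer than 8 bases because a pair of words on opposite strands overlap, and *Mcm6* holds 1 more word nearer the start. These matches are letters in a window and were not tested as binding sites. For *Cdc6*, *Mcm7* and *Hells* the RefSeq start lies inside the gene as annotated in GENCODE. The whole printed stretch of *Cdc6* and of *Mcm7* lies inside it. *Orc1*, *Rfc3*, *Gins3* and *Uhrf1* also had a word before the start and are not shown. The 6 genes shown did not share 1 pattern over the cells: *Mcm6* had a read in all 22 cells, and *Cdc6* in 7.

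Replication transcripts were concentrated in a few cells. Together the 50 genes took 1.17% of the reads of S-type cell J151_5, 1.02% of T-type cell J165_23 and 0.586% of S-type cell J150_3. S-type J155_9 (0.297%) and M-type J173_25 (0.284%) came next, and the remaining 17 cells lay between 0.0107% (T-type J162_16) and 0.192% (T-type J161_9). The 95% binomial intervals (Clopper-Pearson) of the 3 highest cells were 1.16% to 1.17%, 1.01% to 1.02% and 0.583% to 0.590%, and they cover counting error only, since the reads were amplified and carry no molecular identifiers. Medians of the types were 0.206% for S-type, 0.110% for T-type, 0.108% for M-type and 0.0854% for NR. The NR cells spanned 0.0453% to 0.107%, and 4 cells of S-type, 3 of T-type and 3 of M-type lay above the highest of them. J153_6 (0.115%), J166_25 (0.116%), J174_13 (0.115%) and J176_25 (0.108%) lay close above it, the last within its counting interval. *Pcna* supplied the most reads of any member, and without it J151_5 still had 0.876% and J165_23 0.763%. Total reads did not order the cells in the same way, with a Spearman rho of 0.03 over the 22 cells, given as a description.

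**Figure D1:**
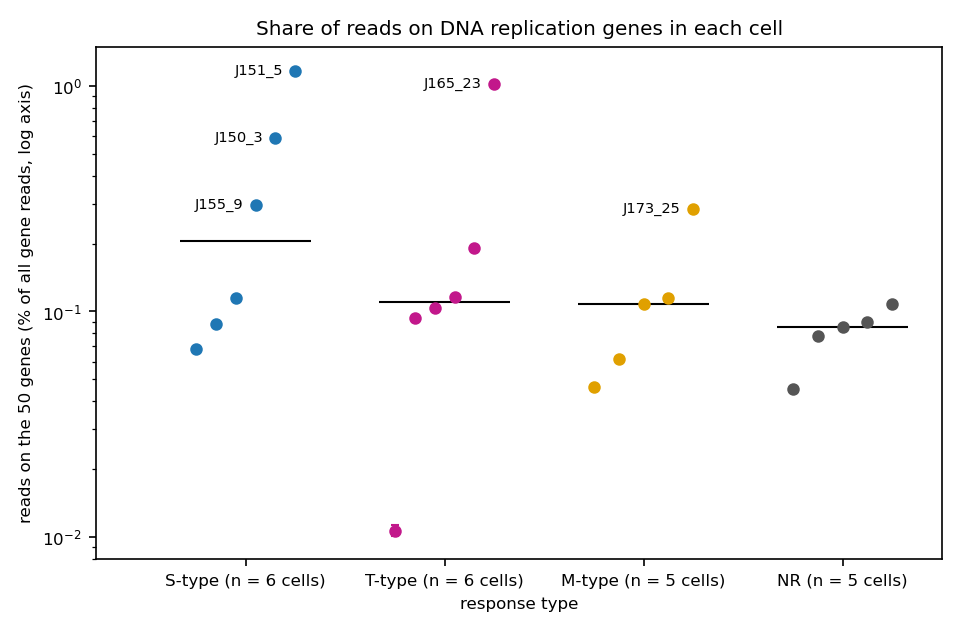
Reads on the 50 DNA replication genes as a percentage of all gene reads (log axis) for each cell, by response type, with the 95% binomial interval as a bar that is mostly smaller than the point and the type median as a black line. J151_5, J165_23 and J150_3 stand above 0.5%, while every NR cell lies at or below 0.107%.

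The number of members with a read varied from 14 to 50. J151_5 had reads of all 50, S-type J155_9 of 49, T-type J165_23 of 48, M-type J173_25 of 47 and NR cell J183_1 of 46. J163_18 and J162_16, the T-type cells with the smallest size factors, had reads of 14 and 15. Thinned to the 2937786 reads of the smallest library, which evens out the sequencing depth but not the yield of the amplification, J151_5 was expected to show 49.9 members, J165_23 46.8, J183_1 42.4 and NR cell J187_6 12.6. Only 3 members, *Mcm6*, *Pcna* and *Usp1*, had a read in every cell. Of the 50, 22 members were highest in J151_5 (44.0%, against 8.28% of the 12719 genes tested), 14 in J165_23 (28.0% against 5.02%) and 7 in J150_3 (14.0% against 6.30%). Seen per gene, the 3 highest cells held a median of 80.9% of a member's normalized counts against 56.8% over all genes tested, and 17 of the 50 members had more than 50% in 1 cell, as did 19.02% of all genes tested. The members highest elsewhere were *Mcm4* and *Gins3* (J161_9), *Mcm3* (J155_9), *Rfc4* (J173_25), *Cdc6* (J174_13), *Chaf1a* (J182_2) and *E2f1* (J186_5).

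**Figure D2:**
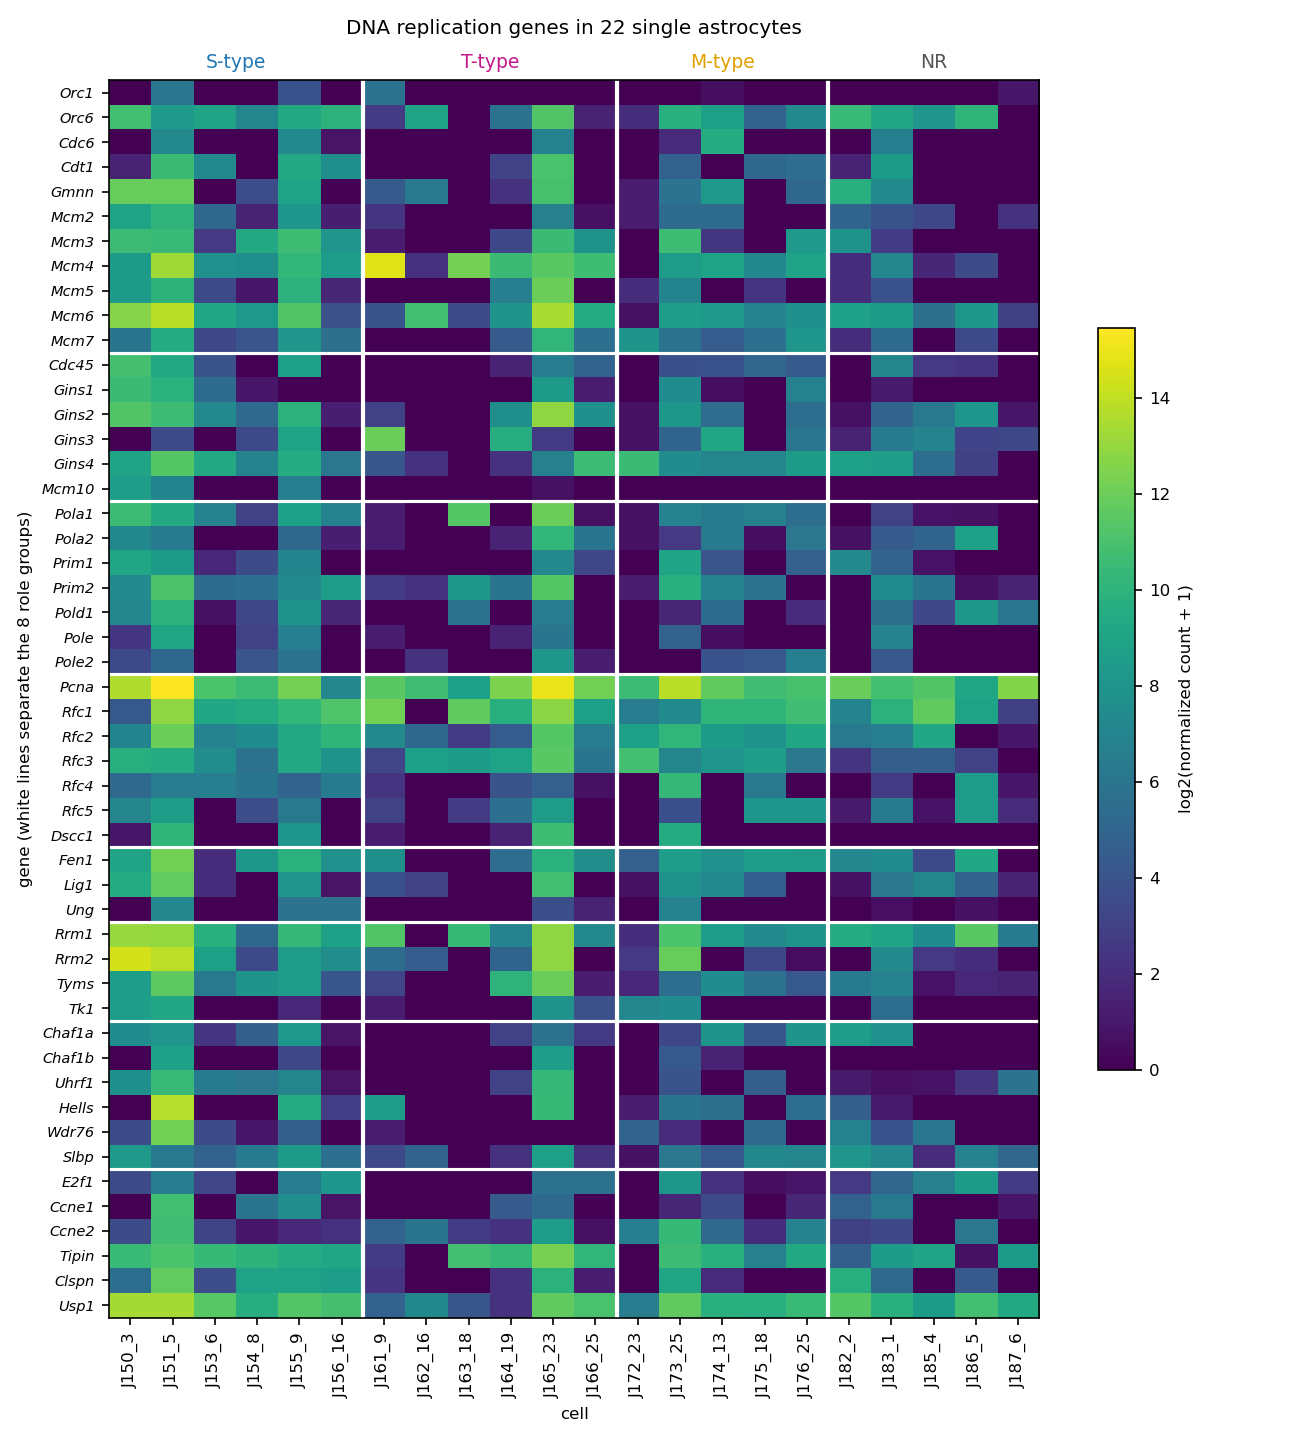
Log2 of the normalized count plus 1 of the 50 genes (rows, in 8 role groups) in the 22 cells (columns, by response type). J151_5 and J165_23 are bright over nearly all rows, J150_3 over most but with 7 members at 0, and Pcna, Mcm6 and Usp1 have reads in every cell.

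To ask whether the response types differed, normalized counts were averaged over the cells of each type to give the level of a gene. Genes needed a read in at least 5 cells, which 49 members and 12719 genes met, and *Mcm10*, with reads in 4 cells, did not. S-type levels of the members were above NR levels with a median log2 ratio of 3.39, while the median of all genes was 0.03. Of the 49 members, 41 were at least 2-fold higher in S-type, against 25.1% of all genes, and 1 (*Pola2*) was at least 2-fold lower, against 22.4%. Without J151_5 the median was 1.89 with 34 members at least 2-fold higher. Without both J151_5 and J150_3 it was 1.64 with 27 higher and 5 lower, beside -0.12 for all genes. The sign of the median thus stayed without these 2 cells. S-type cell J155_9, with 0.297% of its reads on the members, was still in, and leaving it out as well was not tried. The T-type median against NR was 2.22, with 30 members at least 2-fold higher (28.6% of all genes) and 7 lower (32.4%), and the all-gene median was -0.05. This one rested on a single cell, since without J165_23 the median was -1.04 with 11 members higher and 25 lower. For M-type against NR the median was 0.65 beside -0.20 for all genes, with 23 members higher (19.8%) and 8 lower (28.1%), and without J173_25 it was -0.12 with 13 higher and 16 lower. These 3 comparisons share the NR cells. For settings with 1 cell left out, here and below, the median and shares of all genes were not obtained. Those medians and counts of members therefore have no background to be read against.

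T-type against S-type gave a median of -1.03 beside -0.07 for all genes, with 5 members at least 2-fold higher in T-type (26.0% of all genes) and 25 lower (32.2%). Which cells were in decided this value: it was 0.22 without J151_5, 1.22 without J151_5 and J150_3, -4.10 without J165_23 and -2.64 without all 3. Without J162_16 and J163_18, the T-type cells with the smallest size factors, the member median was -0.47 beside -0.25 for all genes. Few members separated the types cell by cell. *Mcm4*, *Rfc3* and *Tipin* were higher in every S-type cell than in every NR cell, against 0.204% of all genes, and none was lower in this sense (0.204%). *Rfc3* was also higher in every M-type than in every NR cell (0.275%), and no member was lower (0.322%). No member was higher in every T-type cell than in every NR cell (0.189%) or lower (0.802%). Between T-type and S-type, *Rfc4* alone was lower in every T-type cell (0.645%), and no member was higher in every one (0.126%).

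Single genes were followed in the same way, with each cell of both types left out in turn. Of the 41 members at least 2-fold higher in S-type than in NR, 33 stayed so whichever cell was left out, against 45.6% of all genes with such a ratio. All of *Mcm2* to *Mcm7* were among the 33, with *Gmnn*, *Cdt1*, *Cdc45*, *Gins1*, *Gins2*, *Gins4*, *Rrm1*, *Rrm2*, *Tyms*, *Fen1* and *Lig1*, and *Cdc6*, *Pold1*, *Pole*, *Pcna*, *Rfc1*, *Wdr76*, *Ccne2* and *Clspn* were not. For T-type against NR 11 of the 30 higher members stayed (31.0% of all genes, formed with the same floor). They were *Mcm4*, *Mcm5*, *Mcm6*, *Gins3*, *Pola1*, *Rfc3*, *Tyms*, *Hells*, *Tipin*, *Orc1* and *Chaf1b*. Of these, *Orc1* and *Chaf1b* stayed only through the floor of 3 reads that replaces 0. All T-type reads of *Orc1* were in J161_9 and all of *Chaf1b* in J165_23, so without that cell no ratio could be given. Of the 7 lower members 3 stayed (53.0%), *Chaf1a*, *Wdr76* and *E2f1*. For M-type against NR 10 of 23 stayed (38.1%), *Mcm4*, *Mcm7*, *Gins1*, *Pola1*, *Pole2*, *Rfc2*, *Rfc3*, *Tk1*, *Hells* and *Ccne2*, and 2 of the 8 lower ones did (40.3%), *Pold1* and *Ccne1*. The 1 member lower in S-type than in NR, *Pola2*, did not stay (35.2%). None of the 5 members higher in T-type than in S-type stayed (25.5%), and 16 of the 25 lower ones did (59.2%), among them *Mcm2*, *Mcm3*, *Cdc45*, *Rrm2*, *Ccne1*, *E2f1* and *Usp1*. Only for members higher in S-type than in NR was the share that stayed well above that of all genes. In every other case it was near the share of all genes or below it, so staying was not particular to the members there. *Mcm4*, *Pola1*, *Rfc3* and *Hells* were the members that stayed higher than NR in all 3 responding types. The share of all genes that did so was not obtained, and a low NR level raises all 3 ratios at once. *Hells* had a read in only 2 of the 6 T-type cells. The sizes were less stable than the calls: leaving out 1 cell moved the ratio by more than 1.5-fold in 45 of the 49 members for S-type against NR, in 49 for T-type against NR, in 48 for M-type against NR and in 49 for T-type against S-type.

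**Figure D3:**
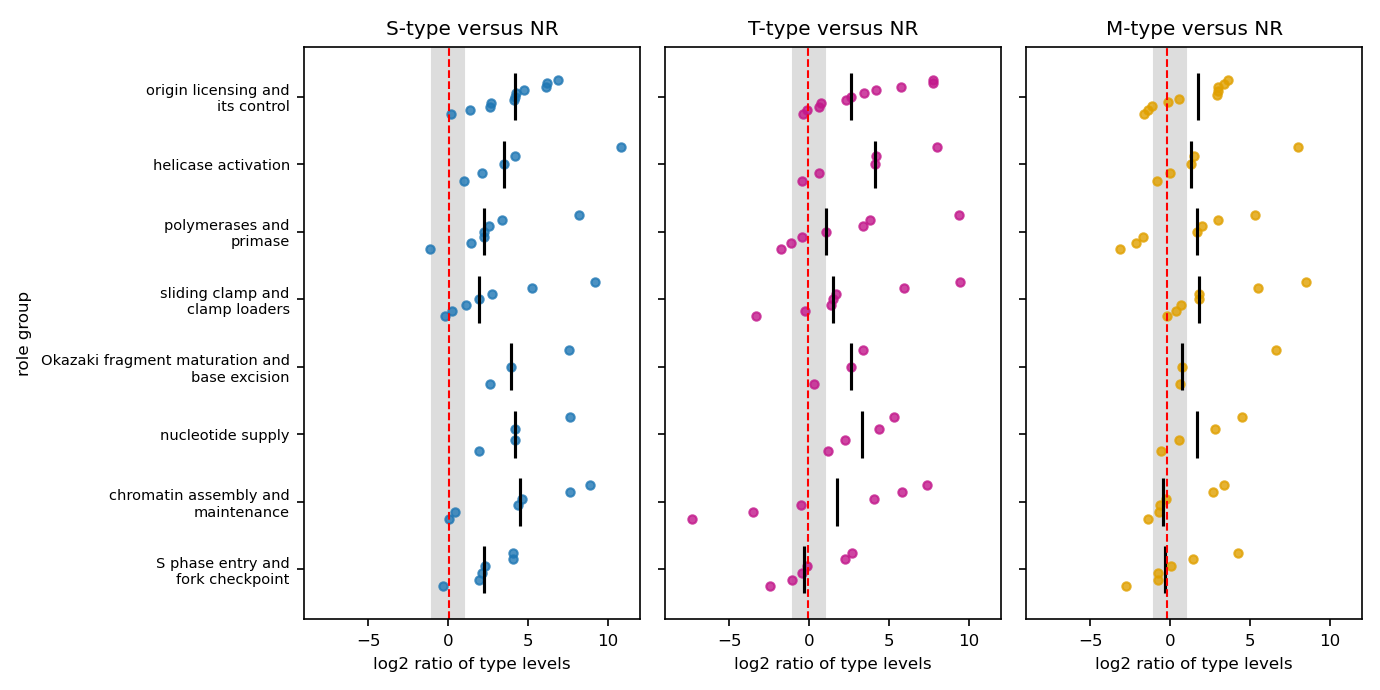
Log2 ratios of type levels against NR for the members tested, by role group; each point is 1 gene, black bars are group medians, the dashed line is the median of all genes and the gray band marks less than a 2-fold difference. Ratios against a type without a read are lower bounds, and genes with at most 3 reads in both types are left out. S-type points lie mostly to the right of the band in every role group, T-type and M-type points on both sides.

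Among the 11 licensing genes, 10 were at least 2-fold higher in S-type than in NR, with a median log2 ratio of 4.16, and *Orc6* was the exception (0.17). Gene positions are on GRCm38, and in the lists of single values that follow, M-type cells come in the order J172_23, J173_25, J174_13, J175_18 and J176_25, and NR cells in the order J182_2, J183_1, J185_4, J186_5 and J187_6. *Mcm4* (chr16:15623897-15637400, minus strand) encodes a subunit of the helicase ring. Its normalized counts ran from 203 (J154_8) through a median of 359 to 9629 (J151_5) in S-type cells and from 3.63 (J162_16) through a median of 2256 to 26921 (J161_9) in T-type cells. M-type cells had 0, 356, 500, 146 and 483, and NR cells 3.04, 131, 2.16, 10.8 and 0. Every S-type cell was above every NR cell, and 5 of the 6 T-type cells were too. Log2 ratios to NR were 6.09 for S-type (4.00 without J151_5), 7.74 for T-type (6.19 without J161_9) and 3.34 for M-type, and without NR cell J183_1 they were 8.97, 10.62 and 6.22. J161_9 held 52.5% of all normalized counts of *Mcm4*, and this gene was unlike its partners in T-type cells: J161_9 and J163_18 had no read of *Mcm5* or *Mcm7*.

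*Mcm6* (chr1:128331590-128359664, minus strand), another ring subunit, ran from 13.4 (J156_16) through a median of 1519 to 14816 (J151_5) in S-type cells and from 10.9 (J163_18) through a median of 490 to 11817 (J165_23) in T-type cells. Its 5 values in M-type were 0.626, 396, 335, 119 and 215, and in NR 468, 346, 51.8, 288 and 6.49. J151_5, J165_23 and J150_3 together held 79.6% of its counts, and the other S-type cells reached from within the NR range to above it. Log2 ratios to NR were 4.14 for S-type (3.06 without J151_5), 3.40 for T-type (1.30 without J165_23) and -0.12 for M-type. *Mcm2*, *Mcm3*, *Mcm5* and *Mcm7* had S-type to NR log2 ratios of 4.76, 4.27, 6.88 and 4.16, and all 4 had their 2 highest counts among cells J150_3, J151_5, J155_9, J165_23 and J173_25.

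Because the 6 ring subunits act in equal number, their transcripts were compared within cells per kilobase of exon. All 6 had at least 10 reads in J150_3, J151_5, J155_9, J165_23, J173_25 and NR cell J183_1. Within J155_9 the normalized count per kb ran from 40.7 (*Mcm2*) to 534 (*Mcm6*), and the highest subunit held 32.6% of the sum. In J161_9, on the other hand, *Mcm4* held 99.9% of the sum, at 7501 per kb, while the median of the 6 was 0.491. J163_18 showed the same kind of imbalance with the same subunit (*Mcm4*, 99.8%), and J162_16 (*Mcm6*, 99.8%) and J172_23 (*Mcm7*, 98.1%) with other subunits. J163_18 and J162_16 were the cells with the smallest size factors.

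**Figure D4:**
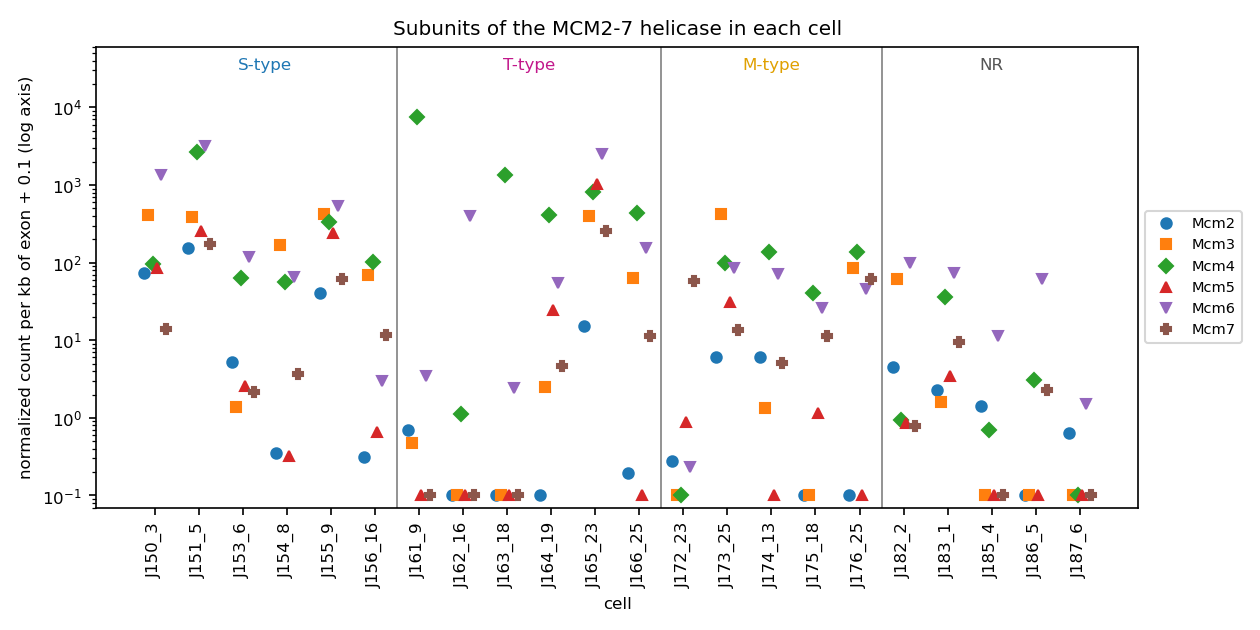
Normalized counts per kb of exon plus 0.1 (log axis) of the 6 MCM2-7 subunits in each cell, by response type; points at the bottom have no read. In J151_5, J155_9 and J165_23 all 6 subunits are present, whereas in J161_9 Mcm4 reaches 7501 per kb with Mcm5 and Mcm7 at 0.

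The loading factors were more sporadic. *Orc1*, the largest subunit of the origin recognition complex, had 123 reads in all and a read in 5 cells, and with 1 read in NR its pooled S-type to NR log2 ratio was 6.32 (95% interval 3.80 to 11.64). *Orc6*, which encodes the smallest subunit, had a read in 20 cells and was present at 1359 in NR cell J182_2 and 1097 in J186_5. *Cdc6*, the loader, was highest in M-type J174_13 (774), followed by J155_9 (157.7) and J151_5 (156.1), and had no read in J150_3. Its partner *Cdt1* was at 2045 in J165_23 and 1480 in J151_5, and in J150_3 only at 1.77. *Gmnn* encodes geminin, the inhibitor of CDT1 that accumulates from S phase until mitosis, and it was highest in J150_3 (3718), with 3673 in J151_5 and 2014 in J165_23. J150_3 thus had a high count of the inhibitor with little or none of CDT1 and CDC6 transcript, while J151_5 and J165_23 had all 3.

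Among the helicase activation genes, 4 of the 5 tested were at least 2-fold higher in S-type than in NR. *Gins2* (chr8:120578633-120589304, minus strand) encodes a subunit of the 4-part GINS complex. In S-type cells it ran from 1.48 (J156_16) through a median of 572 to 2453 (J150_3), and in T-type cells from 0 (2 cells) through a median of 106 to 7644 (J165_23). M-type cells had 0.626, 293, 45.5, 0 and 46.2 and NR cells 0.607, 28.9, 75.5, 279 and 0.927. J165_23 alone held 54.6% of its counts, and the S-type range overlapped the NR range at its lower end. Its log2 ratios to NR were 3.48 for S-type and 4.13 for T-type, the latter 0.15 without J165_23. In the annotation 2758 bases of its exons overlap exons of Gse1 on the opposite strand, and whether the counting used strand is not given in the sources used here, so reads of both cannot be told apart.

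*Gins4* (chr8:23226616-23237659, minus strand) was the most evenly spread subunit, with a read in 20 cells and 27.9% of its counts in the highest. It ran from 69 (J156_16) through a median of 584 to 2677 (J151_5) in S-type and from 0 (J163_18) through a median of 10.3 to 1552 (J166_25) in T-type. The M-type cells had 1457, 182.1, 128, 130 and 336, and the NR cells 453, 407, 47.5, 6.58 and 0. NR cells J182_2 and J183_1 were within the S-type range, and the S-type to NR log2 ratio was 2.12, and 1.20 without J151_5.

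*Gins1* (chr2:150905400-150931280, plus strand) had the largest S-type to NR ratio of the members with a mean level of at least 10. S-type counts ran from 0 (2 cells) through a median of 22.4 to 1500 (J150_3), T-type counts from 0 (4 cells) through a median of 0 to 347 (J165_23), and the M-type cells had 0, 181.4, 0.469, 0 and 109. In NR only J183_1 had a read, at 1.13. The type had 2 reads of it, and the pooled log2 ratio to NR was 10.38 (95% interval 8.53 to 13.43) for S-type. J150_3, J151_5 and J165_23 held 89.2% of all its counts, and S-type cells J155_9 and J156_16 had none.

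*Gins3* (chr8:95633453-95645060, plus strand) was the member with the largest ratio in favor of T-type over S-type, 3.23. It ran from 0 (3 cells) through a median of 2.59 to 4035 (J161_9) in T-type cells and from 0 (3 cells) through a median of 4.82 to 496 (J155_9) in S-type cells. M-type cells had 0.626, 30.8, 534, 0 and 67.4, and NR cells 1.82, 83.4, 118, 7.78 and 9.27. The ratio came from J161_9 and J164_19 (808), and without J161_9 it was 0.92. The S-type level came mostly from J155_9 (496), and without it the ratio was 7.70. In J150_3, where the other 3 subunits were at 1500 (*Gins1*), 2453 (*Gins2*) and 515 (*Gins4*), *Gins3* had no read. *Cdc45*, the partner of GINS, was highest in J150_3 (1938) and stood at 4.16 in S-type relative to NR. *Mcm10*, which helps to activate the helicase, had a read in 4 cells only, 391 normalized counts in J150_3, 122 in J151_5, 97.3 in J155_9 and 0.648 in J165_23, and none in M-type or NR.

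Polymerase and primase genes had a median S-type to NR log2 ratio of 2.24. *Pola1* (chrX:93304767-93632155, minus strand), the catalytic subunit of DNA polymerase alpha, ran from 7.01 (J154_8) through a median of 288 to 1574 (J150_3) in S-type cells and from 0 (2 cells) through a median of 1.02 to 4140 (J165_23) in T-type cells. Its M-type values were 0.626, 117, 78.8, 105 and 48, and its NR values 0, 7.37, 0.719, 0.598 and 0. NR cells were all below 10, while 5 of the 6 S-type cells, 4 of the 5 M-type cells and 2 of the 6 T-type cells were above 10. Log2 ratios to NR were 8.16, 9.34 and 5.33 for S-type, T-type and M-type, and at least 7.34, 8.24 and 5.01 whichever cell was left out. *Pola2*, its regulatory subunit (chr19:5940542-5964202, minus strand), went the other way in S-type, at -1.17. S-type cells ran from 0 (2 cells) through a median of 18.4 to 148 (J150_3) and T-type cells from 0 (2 cells) through a median of 1.62 to 1220 (J165_23). M-type cells had 0.626, 4.9, 78.8, 0.519 and 70.4, and NR cells 0.607, 19.9, 30.9, 456 and 0. The NR level came from J186_5, without which the S-type ratio was 1.81.

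*Prim2* (chr1:33453810-33669795, minus strand), the large primase subunit, ran from 43.9 (J153_6) through a median of 163.7 to 2297 (J151_5) in S-type and from 0 (J166_25) through a median of 34.7 to 2667 (J165_23) in T-type. M-type cells had 1.25, 820, 114, 58.1 and 0, and NR cells 0, 180.9, 63.3, 0.598 and 1.85. All S-type cells were above 40, and 3 of the 5 NR cells were below 2. The log2 ratio to NR was 3.39 for S-type (1.69 without J151_5) and 3.36 for T-type (0.55 without J165_23), and *Prim1*, the catalytic primase subunit, was at 2.21. *Pold1* (chr7:44532746-44548849, minus strand), the catalytic subunit of DNA polymerase delta, had the largest ratio in favor of NR over M-type, -3.14, which was -6.16 without J174_13 and -1.72 without J186_5. S-type cells ran from 0.609 (J153_6) through a median of 75.8 to 968 (J151_5) and T-type cells from 0 (4 cells) through a median of 0 to 94.6 (J165_23). M-type cells had 0, 2.1, 43.1, 0 and 2.59 and NR cells 0, 52.2, 8.63, 295 and 64.9, so that the ranges overlapped. *Pole* and *Pole2*, subunits of polymerase epsilon, had 1011 and 908 reads in all and were highest in J151_5 and J165_23.

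*Pcna* (chr2:132249162-132253314, minus strand), the sliding clamp, was the most read member, with 188207 reads and a mean of 2867 normalized counts per kb over the cells. Normalized counts ran from 142 (J156_16) through a median of 3517 to 45117 (J151_5) in S-type and from 426 (J163_18) through a median of 3731 to 31593 (J165_23) in T-type cells. M-type cells had 1558, 14692, 3330, 1673 and 2033, and NR cells 3872, 1796, 2474, 542 and 6120. It was never below 142, and the lowest value was in an S-type cell. The ranges of all 4 types overlapped, and log2 ratios to NR were 1.91 for S-type (0.54 without J151_5), 1.39 for T-type (0.03 without J165_23) and 0.65 for M-type (-0.46 without J173_25). NR cell J187_6, with 21 members detected, had 6120, and *Pcna* made up 82.5% of its replication gene reads.

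*Rfc1* (chr5:65261850-65335670, minus strand), the large subunit of the clamp loader, ran from 17.8 (J150_3) through a median of 970 to 7628 (J151_5) in S-type and from 0 (J162_16) through a median of 2037 to 6984 (J165_23) in T-type cells. M-type cells had 93.2, 165.9, 1132, 1100 and 1697, and NR cells 118, 978, 3245, 510 and 6.49. J150_3 was the lowest S-type cell although only J151_5 and J165_23 had a larger share of reads on the 50 genes, and the 4 ranges overlapped. The S-type to NR log2 ratio of 1.11 was 0.02 without J151_5. *Rfc3*, a small subunit (chr5:151642756-151651242, minus strand), was named after its values were seen because it separated S-type and M-type from NR. NR cells had 4.25, 22.7, 25.2, 7.18 and 0, M-type cells 1809, 132, 267, 393 and 67.8, and S-type cells ran from 53.4 (J154_8) through a median of 446 to 839 (J150_3). In T-type cells it ran from 8.45 (J161_9) through a median of 378 to 2954 (J165_23), and 5 of the 6 were above the NR range. Its log2 ratios to NR were 5.25, 5.91 and 5.49. *Rfc4* differed between S-type cells, from 29.8 (J155_9) through a median of 72 to 98.7 (J153_6), and T-type cells, from 0 (2 cells) through a median of 2.43 to 25.3 (J165_23), at a ratio of -3.16, and its highest count was in M-type J173_25 (1273). *Rfc2* and *Rfc5* stood at 2.71 and 0.21 in S-type relative to NR. Exons of *Rfc2*, *Rfc4* and *Rfc5* overlap Lat2 (952 bases), Eif4a2 (194 bases) and Wsb2 (499 bases) on the opposite strand.

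*Dscc1* (chr15:55076099-55090491, minus strand), part of an alternative clamp loader used in sister chromatid cohesion, had no read in any NR cell. It was at 1637 in J165_23, 1093 in J151_5, 728 in J173_25 and 281 in J155_9. J150_3 (0.888), J161_9 (1.41) and J164_19 (1.82) had single reads, and the other cells none. Against 3 reads over the NR cells, the log2 ratio was at least 9.43 for T-type and at least 8.52 for M-type. Each bound was made by 1 cell: without J165_23 the T-type cells had 2 reads left, without J173_25 the M-type cells had none, and no ratio could then be given.

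All 3 genes of the maturation group were at least 2-fold higher in S-type than in NR. *Fen1* (chr19:10199132-10204169, minus strand), the flap endonuclease that trims Okazaki fragments, ran from 3.05 (J153_6) through a median of 408 to 4647 (J151_5) in S-type and from 0 (2 cells) through a median of 121 to 920 (J165_23) in T-type. M-type cells had 26.3, 391, 229, 393 and 356, and NR cells 141, 177.0, 10.1, 588 and 0. J151_5 held 45.1% of its counts, and the other 5 S-type cells, from 3.05 to 941, overlapped the NR cells. A noncoding gene on the opposite strand, Gm10143, overlaps 1909 bases of its exons. *Lig1* (chr7:13277283-13311433, plus strand), the ligase that seals the fragments, ran from 0 (J154_8) through a median of 132 to 3421 (J151_5) in S-type and from 0 (3 cells) through a median of 3.63 to 1758 (J165_23) in T-type. M-type cells had 0.626, 231, 151.4, 23.9 and 0, and NR cells 0.607, 69.2, 137, 29.9 and 1.85. J151_5, J165_23 and J150_3 together held 86.4% of it. Log2 ratios of S-type to NR were 2.59 for *Fen1* and 3.95 for *Lig1*, and they were 1.12 and 2.06 without J151_5. The T-type ratio of *Lig1*, 2.64, was -3.48 without J165_23. *Ung*, which removes uracil from DNA, had 468 reads in all, highest in J151_5 (143), and with 2 reads in NR its pooled S-type to NR log2 ratio was 7.16 (95% interval 5.30 to 10.22).

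The nucleotide supply genes were led by both subunits of ribonucleotide reductase, which makes deoxyribonucleotides. *Rrm2* (chr12:24708241-24714146, plus strand), the small subunit whose level follows the cell cycle, ran from 9.63 (J154_8) through a median of 393 to 22278 (J150_3) in S-type and from 0 (2 cells) through a median of 26.4 to 7659 (J165_23) in T-type cells. M-type cells had 5, 3660, 0, 9.34 and 0.432, and NR cells 0, 153.7, 5.03, 2.99 and 0. J150_3 and J151_5 were highest, followed by J165_23 and J173_25, and in every other cell it was at most 433. J150_3, J151_5 and J165_23 held 90.2% of its counts, and its log2 ratios to NR were 7.63 for S-type, 5.32 for T-type and 4.51 for M-type. Without J150_3 the first was 6.66, without J165_23 the T-type ratio was -0.68, and without J173_25 the M-type ratio was -3.13. *Rrm1* (chr7:102441695-102469771, plus strand), the large subunit, which is known to vary less over the cycle, ran from 34.2 (J154_8) through a median of 1089 to 8644 (J150_3) in S-type and from 0 (J162_16) through a median of 731 to 7633 (J165_23) in T-type. M-type cells had 3.13, 2129, 367, 152.0 and 236, and NR cells 719, 513, 181.9, 2879 and 83.4. *Rrm1* had a read in 21 cells and overlapped between all types, with log2 ratios of 1.91, 1.15 (-0.12 without J165_23) and -0.60. *Tyms*, thymidylate synthase, and *Tk1*, thymidine kinase, stood at 4.15 and 4.18 in S-type relative to NR. *Tyms* was highest in J165_23 (3990), J151_5 (3211) and T-type J164_19 (1071).

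In the chromatin group, *Hells* and *Wdr76* had most of their counts in 1 cell. *Hells* (chr19:38930915-38971051, plus strand), a remodeler needed for DNA methylation, ran from 0 (3 cells) through a median of 2.97 to 13539 (J151_5) in S-type and from 0 (4 cells) through a median of 0 to 1323 (J165_23) in T-type cells. M-type cells had 1.25, 59.5, 51.1, 0 and 47.5, and NR cells 24.3, 1.13, 0, 0 and 0. J151_5 held 83.6% of its counts and J150_3 had none. The S-type to NR log2 ratio was 8.87, and 4.90 without J151_5, whereas the S-type median of 2.97 was below 24.3 in NR cell J182_2. *Wdr76* (chr2:121506723-121544860, plus strand), a WD-repeat protein linked to the DNA damage response, ran from 0 (J156_16) through a median of 10.8 to 4575 (J151_5) in S-type cells, and J151_5 held 93.7% of its counts. Its S-type to NR log2 ratio was 4.35 with this cell and -1.99 without it. M-type cells had 29.4, 2.8, 0, 39.4 and 0, and NR cells 109, 13.6, 66.2, 0 and 0. In T-type there was 1 read, in J161_9, and J165_23, rich in nearly all other members, had none. The pooled log2 ratio of T-type was -7.56 (95% interval -12.87 to -5.07) to NR and -11.44 (95% interval -16.74 to -8.96) to S-type. These intervals cover counting error only, and without J151_5 the T-type to S-type log2 ratio of mean levels was -5.34, against -11.68 with it.

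*Chaf1b*, a subunit of the histone chaperone CAF-1, had reads in 5 cells, with 460 in J151_5, 397 in J165_23, 18.2 in J173_25, 9.41 in J155_9 and 1.88 in J174_13. Its large subunit *Chaf1a* was spread over 15 cells and highest in NR cell J182_2 (396), but 4648 bases of its exons overlap Ubxn6 on the opposite strand. *Uhrf1*, which guides maintenance methylation to new DNA, had 1426 in J151_5 and 1276 in J165_23, and its S-type to NR log2 ratio was 4.64, and 2.96 without J151_5. *Slbp* encodes the protein that binds the stem-loop of histone mRNA, and it was among the more evenly spread members, with a read in 21 cells and 18.2% of its counts in its highest cell. Its log2 ratios to NR were 0.42 for S-type, -0.54 for T-type and -0.64 for M-type, all less than 2-fold, but the T-type ratio was -3.60 without J165_23. The 14 replication-dependent histone genes, whose mRNAs SLBP binds, took at most 0.00325% of the reads of a cell. How well the amplification and the mRNA libraries capture these mRNAs was not tested, so this share is no measure of their expression.

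In the last group, *Usp1* (chr4:98923810-98935543, plus strand), the enzyme that takes ubiquitin off PCNA, ran from 779 (J154_8) through a median of 2684 to 10841 (J151_5) in S-type and from 3.65 (J164_19) through a median of 88.4 to 3309 (J165_23) in T-type cells. M-type cells had 94.5, 3344, 909, 846 and 1395, and NR cells 2688, 892, 349, 1847 and 663. It was high in both J150_3 and J151_5 and, in T-type, under 200 in 4 of the 6 cells. The S-type to NR log2 ratio was 1.93 and the T-type to S-type ratio -2.39. *Tipin* (chr9:64281581-64305424, plus strand), part of the fork protection complex, ran from 566 (J156_16) through a median of 1157 to 2166 (J151_5) in S-type and from 0 (J162_16) through a median of 1189 to 5057 (J165_23) in T-type cells. M-type cells had 0, 1574, 914, 107 and 667, and NR cells 24.9, 338, 521, 0.598 and 350. Every S-type cell was above every NR cell, by a small margin between J156_16 and J185_4, and its 3 highest cells held only 43.2% of its counts. Log2 ratios to NR were 2.29, 2.65 and 1.40.

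*E2f1*, the factor that drives entry into S phase, did not follow the rest: it was highest in NR cell J186_5 (346), then M-type J173_25 (289) and S-type J156_16 (278), and its ratios to NR were -0.31, -2.45 and -0.74 on the log2 scale. Without J186_5 they were 1.11, -1.03 and 0.68. The cyclins E, which activate CDK2 at the G1/S boundary, were both highest in J151_5, at 1778 for *Ccne1* and 1671 for *Ccne2*. J150_3 had no read of *Ccne1* and 10.7 of *Ccne2*, and M-type J173_25 had 1331 of *Ccne2*. *Clspn*, the checkpoint mediator claspin, was at 3384 in J151_5 and also at 853 in NR cell J182_2.

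The cells rich in replication transcripts were also those rich in transcripts of mitosis. A list of 35 mitosis genes, with *Bub3*, *Smc4* and *Top2a* the most read, took 1.91% of the reads of J150_3, 0.842% of J151_5, 0.345% of J165_23, 0.169% of J155_9 and 0.155% of J173_25. These are the same 5 cells as for the 50 replication genes, but in another order, since J150_3 led for mitosis and J151_5 for replication. Over the 22 cells Spearman's rho between both shares was 0.62, given as a description. In S-type against NR, 33 of the 35 mitosis genes were at least 2-fold higher (25.1% of all genes) and 0 lower (22.4%). The median log2 ratio was 4.74. In T-type against NR 16 were higher (28.6%) and 8 lower (32.4%), with a median of 0.33. Replication and mitosis thus stood at 2.22 and 0.33 in T-type, and J165_23, the T-type cell that carried the first value, had a replication share of 1.02% and a mitosis share of 0.345%. A further 42 replication genes lay outside the 50, with *Rpa1* and *Orc4* among the most read, and 41 were tested. Their median relative to NR was 2.08 in S-type, with 28 at least 2-fold higher (25.1% of all genes) and 4 lower (22.4%). In T-type it was 1.41, with 25 higher (28.6%) and 9 lower (32.4%). In M-type it was 0.47, with 14 higher (19.8%) and 10 lower (28.1%). In T-type relative to S-type it was -1.07, with 6 higher (26.0%) and 21 lower (32.2%). Neither this list nor the mitosis list was followed with cells left out. The S-type median of the mitosis share was 0.144%. J165_23 had 0.644% of its reads on the further replication genes, against a T-type median of 0.1485%. For 14 regulators of progress through G1, among them CDK inhibitors, pocket proteins and the D cyclins, of which *Ccnd2* and *Ccnd1* were the most read, the medians of the 13 tested were 0.33, 1.10 and -0.13 relative to NR.

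**Figure D5:**
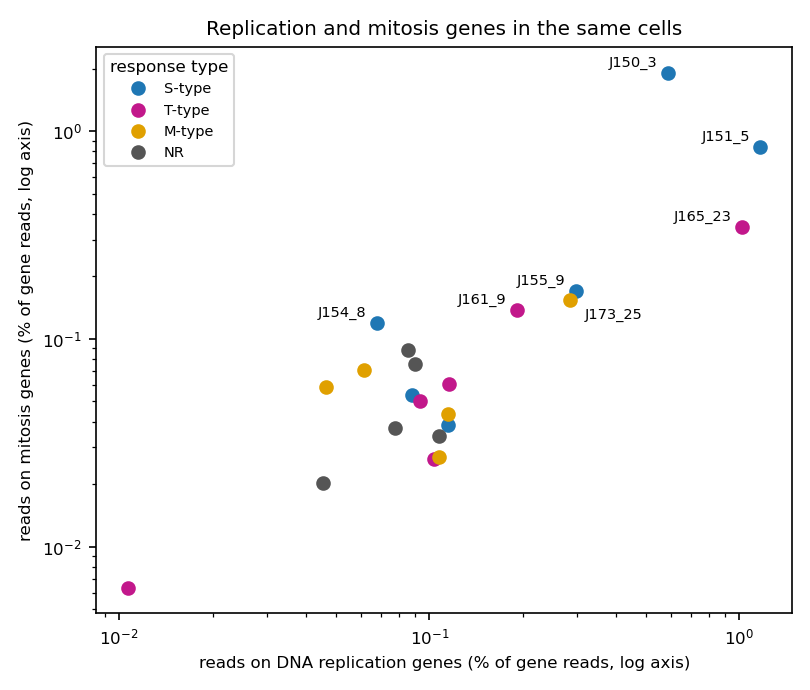
Share of reads on the 50 replication genes (x axis, % of gene reads, log) against the share on 35 mitosis genes (y axis, % of gene reads, log) for each of the 22 cells, colored by response type. J150_3, J151_5, J165_23, J155_9 and J173_25 lead on both axes, with J150_3 highest in mitosis genes (1.91%) and J151_5 in replication genes (1.17%).

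Other properties of the leading cells were compared. Astrocyte markers took 0.201% of the reads in J151_5, which was the lowest share in S-type, and J165_23, with 0.430%, was inside the T-type range. A list of 9 neuron markers took 0.208% in J151_5, the highest share of all cells, and 0.00381% in J165_23, the lowest. In J151_5 nearly all of it was Stmn2 (29179 reads), followed by Map2 (404), while Snap25, Syp and Gad1 had 1 read each and Rbfox3, Syt1, Tubb3 and Slc17a7 none. Whether these moved with the replication genes for a common reason was not tested. J165_23 had reads on 8647 genes and J151_5 on 10768, both inside the range of their types (6319 to 10614 in T-type and 9768 to 11914 in S-type).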

How the data were processed

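Messenger RNA of 22 single astrocytes was measured after calcium imaging. The authors used 2 rounds of antisense RNA amplification per cell, built stranded TruSeq libraries, sequenced paired reads on a NextSeq, aligned them to GRCm38 with STAR and deposited raw gene counts, without molecular identifiers. The study names VERSE as the counter and the labels name HTSeq, and versions and the use of strand are not given in the sources used here.

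Size factors, levels and ratios were obtained in Python 3.11.15 (NumPy 2.4.6, pandas 2.3.3) and exact intervals with SciPy 1.17.1. A level is the mean normalized count of a type; where a type had no read, 3 reads for the whole type, over the sum of its size factors, took the place of 0, and genes needed a read in at least 5 cells. Each response type counted as 1 sample, so differences are sizes without a test, and the call used is a 2-fold ratio. The intervals of ratios come from the exact split of the pooled reads and cover counting error only. The arithmetic was tested on simulated counts with known fold changes. These counts had the same spread over cells for all genes and did not mimic genes concentrated in few cells. They therefore say nothing about how stable the ratios are here. Alternatives were TMM factors (edgeR 4.0.16), CPM, medians over cells, means of log2 values, a pseudocount of 1, other filters and leaving out cells.

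The 2 members with the most normalized counts of each role group, and the member with the largest ratio in each direction of a contrast (mean level 10 or more), are given in every cell; other genes named with values were chosen after their values were seen, beside counts or single high cells. The members and lists were chosen with earlier results of these data known. Positions, exon lengths and overlaps are from GENCODE vM21 (GRCm38), promoters from RefSeq (GRCm38.p6). Overlaps with exons on the opposite strand are named for some members only. Others, such as *Ccne2* (609 bases, Ints8) and *Orc6* (171 bases, Vps35), have them too. Library totals were between 2937786 and 22131076 reads, with a median of 16965582.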

Additional observations from a re-analysis of the deposited data

Results flagged for a closer look

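In 52 groups, formed by 13 measures in 4 response types, 14 had 1 cell whose gap to its nearest neighbor passed Dixon's 95% limit. All 14 were the highest cell of their type. The measures were total reads, genes with a read, and the read shares of the members, their 8 role groups, the other replication genes and the mitosis genes. Dixon's limit assumes normally distributed values, and these shares were skewed. The share of the members also contains those of the role groups, so the flags were not independent and their number cannot be set against a chance rate. T-type J165_23 stood apart for the 50 replication genes (1.02% of reads, against a T-type median of 0.110%) and for 7 of their 8 role groups. These were helicase activation (0.0656%), polymerases and primase (0.0690%), sliding clamp and loaders (0.370%), Okazaki fragment maturation (0.0215%), nucleotide supply (0.156%), chromatin genes (0.0277%), and S phase entry and checkpoint genes (0.0786%). The T-type median of the polymerase group was 0.000612%, and that of the chromatin group 0.000115%. S-type J151_5 stood apart for the sliding clamp group (0.383%, type median 0.0554%), the maturation group (0.0532%, median 0.00575%) and the chromatin group (0.132%, median 0.00339%). M-type J173_25 stood apart for all members (0.284%, median 0.108%), the sliding clamp group (0.136%, median 0.0491%) and nucleotide supply (0.0452%, median 0.00267%). No NR cell stood apart in any of the 13 measures. Why these 3 cells stood apart was not tested.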

How the results depend on the processing

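Leaving out 1 cell at a time moved the median log2 ratio of the members from 1.89 (without J151_5) to 4.14 for S-type versus NR, from -1.04 (without J165_23) to 2.81 for T-type versus NR, from -0.12 (without J173_25) to 1.54 for M-type versus NR and from -4.10 (without J165_23) to 0.22 (without J151_5) for T-type versus S-type. The numbers of members at least 2-fold higher ranged from 34 to 44, 11 to 34, 13 to 27 and 2 to 15 in that order. Shares of all genes were not obtained for these settings. With the median over cells, 15 members were at least 2-fold higher and 13 lower in T-type than in NR (30 and 7 as reported), with a median of 0.65 against 2.22, and 3 were higher in T-type than in S-type. The last count was 8 with CPM of pooled reads and 1 with means of log2 values. Following each member without each cell was also chosen after seeing the data. Alternatives of the same kind left out J150_3 and J151_5, which gave 27 for S-type versus NR and, for T-type versus S-type, a median of 1.22 with 26 members higher (-2.64 with 6 when J165_23 was left out too). The setting without J162_16 and J163_18 was of this kind as well. Among single genes, Pola2 in S-type versus NR ranged from -2.06 to 1.81 (without J186_5), Dscc1 in M-type versus NR from -0.08 to 8.84, formed with the 3-read floor, and was -0.32 with the median over cells, and Gins3 in T-type versus S-type was -0.89 with the median over cells. The cause of these shifts, beyond the cells left out, was not tested. CPM moved the all-gene median of T-type versus NR from -0.05 to -0.45 (pooled reads, -0.52) and that of T-type versus S-type from -0.07 to -0.44 (-0.55). Against that shift, members of T-type versus S-type differed from all genes by 0.07 in pooled reads and by -0.96 in the values reported. No paired analysis was possible because the labels give no replicate numbers and the ratios come from no test. Orc1, Ung and Mcm10 had 123, 468 and 678 reads in all, and whether sequencing depth limited their detection was not tested.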
